A study of Homo sapiens with 24 samples.

Results

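The mitochondrial genome of human cells carries 37 genes, and all of them were followed here in HCT116 cells, a line from a human colorectal carcinoma, that lacked or were depleted of TNRC6 proteins. TNRC6 proteins are scaffolds that bind Argonaute and link small RNA guided recognition to mRNA decay and translational repression. The members were chosen as every gene on chrM in the GENCODE 29 annotation: 2 rRNA genes, 13 protein-coding genes and 22 tRNA genes, out of 57721 annotated genes in all. The choice rests on the annotation alone, but it was made with earlier results of these data known.

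The 24 whole-cell RNA-seq libraries fell into 8 groups of 3. TNRC6A-/-, TNRC6B-/- and TNRC6AB-/- cells were compared with WT cells, all without transfection. TNRC6AB-/- cells given siTNRC6C (a pool of duplex RNAs against TNRC6C) or siGL2 (a control duplex with no complementary target) and WT cells given siTNRC6C were compared with WT cells given siGL2, which therefore served as the shared comparator in 3 of the 9 comparisons, as untransfected WT did in 4. The study describes the TNRC6A knockout as a frameshift mutation and the TNRC6B knockout as a large deletion, each as a purchased cell line, so genotype and line cannot be told apart. For transfection, double knockout cells were seeded more densely than the others. No label gives the cultures from which the 3 replicates of each group were taken, so p-values measure only the spread between these libraries, which may be technical. For single genes that spread was estimated over all 24 libraries together, although it differed between groups.

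Mitochondrial DNA is transcribed from both strands into long polycistronic RNAs. These are cut mainly at the tRNAs that punctuate them, which releases the rRNAs and mRNAs. Almost every mRNA and both rRNAs are read from the heavy-strand promoter, while MT-ND6 and 8 tRNAs lie on the opposite strand. The mRNAs encode subunits of respiratory complexes I, III, IV and V (the ATP synthase), whose other subunits come from nuclear genes and are made in the cytosol.

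Libraries held 28144290 to 42689320 reads, with a median of 34465675. Of the chrM genes, 35 passed the filter on low counts that left 24153 genes for testing. The 7 colon epithelial markers had reads in all libraries, at 10.8 to 1199 CPM (counts scaled to the same library total, here with TMM factors). They did not move together between groups. In TNRC6AB-/- cells CDH1 averaged 24.6 CPM, CLDN7 26.3 CPM and EPCAM 82.0 CPM, against 98.2, 110 and 214 CPM in WT. KRT8, KRT18, KRT19 and CLDN4 averaged higher in TNRC6AB-/- cells than in WT. Of 8 markers of other cell types, COL1A1 lay at 15.6 to 45.1 CPM and the other 7 at or below 2.76 CPM. TNRC6A averaged 68.6 CPM in TNRC6A-/- and 51.0 CPM in TNRC6AB-/- cells, against 111 CPM in WT. TNRC6B averaged 120 CPM in TNRC6B-/- and 93.1 CPM in TNRC6AB-/- cells, against 192 CPM in WT. TNRC6C averaged 21.0 CPM in WT siTNRC6C cells, against 53.7 CPM in WT siGL2, and 19.7 CPM in TNRC6AB-/- siTNRC6C cells, against 120 CPM in TNRC6AB-/- siGL2. WT replicate 2 and TNRC6B-/- replicate 1 lay farthest from their group means, and results that rest on them are given with and without them.

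Several sequences matter for reading the values below. Pairs of mitochondrial genes overlap, so that reads from the shared bases can be assigned to either gene. MT-ATP8 (hg38, chrM:8366-8572, plus strand) and MT-ND4L (chrM:10470-10766, plus strand) are the shortest of the mRNAs and each shares its end with the next gene, MT-ATP6 or MT-ND4, on the same transcript. Both are printed as in the GENCODE 29 transcripts, 5′ to 3′, with the bases shared with the next gene in capitals (46 bases for MT-ATP8 and 7 for MT-ND4L).
MT-ATP8: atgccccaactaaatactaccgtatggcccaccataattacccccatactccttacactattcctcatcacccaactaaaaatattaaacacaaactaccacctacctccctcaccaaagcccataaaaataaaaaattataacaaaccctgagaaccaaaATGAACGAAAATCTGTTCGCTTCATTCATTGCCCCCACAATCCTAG
MT-ND4L: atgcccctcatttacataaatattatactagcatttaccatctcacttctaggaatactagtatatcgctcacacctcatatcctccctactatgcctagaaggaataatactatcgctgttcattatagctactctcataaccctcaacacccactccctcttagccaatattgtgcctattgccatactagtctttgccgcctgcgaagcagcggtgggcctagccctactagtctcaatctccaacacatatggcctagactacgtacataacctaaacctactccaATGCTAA

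The capitals of MT-ATP8 begin with the ATG that starts MT-ATP6, and those of MT-ND4L begin with the ATG that starts MT-ND4. Of the tRNA genes called in the comparisons below, 6 whose values are given in full are shown with the anticodon in capitals. MT-TQ (glutamine; chrM:4329-4400, minus strand) and MT-TI (isoleucine; chrM:4263-4331, plus strand) overlap by 3 bases on opposite strands. MT-TS1 (serine; chrM:7446-7514, minus strand) and MT-TD (aspartate; chrM:7518-7585, plus strand) lie side by side between MT-CO1 and MT-CO2. MT-TT (threonine; chrM:15888-15953, plus strand) and MT-TP (proline; chrM:15956-16023, minus strand) lie side by side after MT-CYB.
MT-TQ: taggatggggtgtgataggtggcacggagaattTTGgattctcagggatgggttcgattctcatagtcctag
MT-TI: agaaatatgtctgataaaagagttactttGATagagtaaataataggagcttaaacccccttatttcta
MT-TS1: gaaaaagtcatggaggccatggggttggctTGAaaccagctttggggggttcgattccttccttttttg
MT-TD: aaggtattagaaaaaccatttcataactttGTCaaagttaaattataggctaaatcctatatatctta
MT-TT: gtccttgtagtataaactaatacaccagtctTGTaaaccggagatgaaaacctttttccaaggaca
MT-TP: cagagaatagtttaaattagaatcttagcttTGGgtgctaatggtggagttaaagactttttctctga

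Of these 6, MT-TD is the poorest in G and C (23.5% of its 68 bases) and MT-TS1 the richest (49.3% of 69 bases). MT-TQ, MT-TS1 and MT-TP are on the strand of MT-ND6, and the other 3 are on the strand of the remaining mRNAs.

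The share of each library that came from mitochondrial genes was measured first. It was lower in TNRC6A-/- cells than in WT, and lower in siGL2-transfected cells than in untransfected cells of either genotype, with no overlap between the groups in any of the 3 pairs. TNRC6A-/- cells averaged 6.30 ± 0.204% of reads on chrM genes, against 8.16 ± 0.283% in WT (mean ± SD, n = 3 in this and the following values), a difference of -1.86 percentage points. TNRC6B-/- libraries held 7.04, 8.50 and 6.98%, and TNRC6AB-/- libraries held 6.86, 7.98 and 6.78%. In both of these groups 1 library lay inside or above the WT range and the other 2 below it, and the mean differences of -0.65 and -0.95 points did not separate from WT.

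WT cells given siGL2 held 6.72, 6.41 and 6.67% of reads on chrM genes, which was 1.56 points lower than untransfected WT on average. TNRC6AB-/- cells given siGL2 held 6.53, 5.97 and 6.50%, a mean of 0.873 points lower than untransfected TNRC6AB-/- cells. Transfected and untransfected cells differ in more than the duplex (lipid, time and handling), and these cannot be told apart. Depletion of TNRC6C went with slightly higher shares: WT siTNRC6C libraries held 6.96, 7.09 and 6.78%, each above all 3 WT siGL2 libraries (difference 0.344 points), and TNRC6AB-/- siTNRC6C libraries held 6.82, 6.34 and 6.79%, which overlapped the TNRC6AB-/- siGL2 values (difference 0.318 points).

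Over the 8 groups the share differed by more than its replicates (permutation test of the F statistic over 24 libraries, p = 0.00317, adjusted p = 0.00571 over 4 such measures). For single pairs the smallest two-sided exact permutation p that 3 against 3 libraries can give is 0.1. That value was reached by the 4 pairs without overlap, and adjusted over 9 pairs it was 0.225, so no pair passed the threshold of 0.05. Shares of TPM (reads divided by transcript length and scaled to the same total in each library) gave differences of the same sign for TNRC6A-/- and for WT siGL2, both against WT (-3.35 and -3.26 points). For TNRC6AB-/- siGL2 against WT siGL2 the sign turned with the unit (1.36 points higher in TPM, 0.264 points lower in reads), and for TNRC6AB-/- siGL2 against TNRC6AB-/- the TPM difference was only -0.0171 points, so no direction is given for these pairs beyond the reads themselves.

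**Figure D1:**
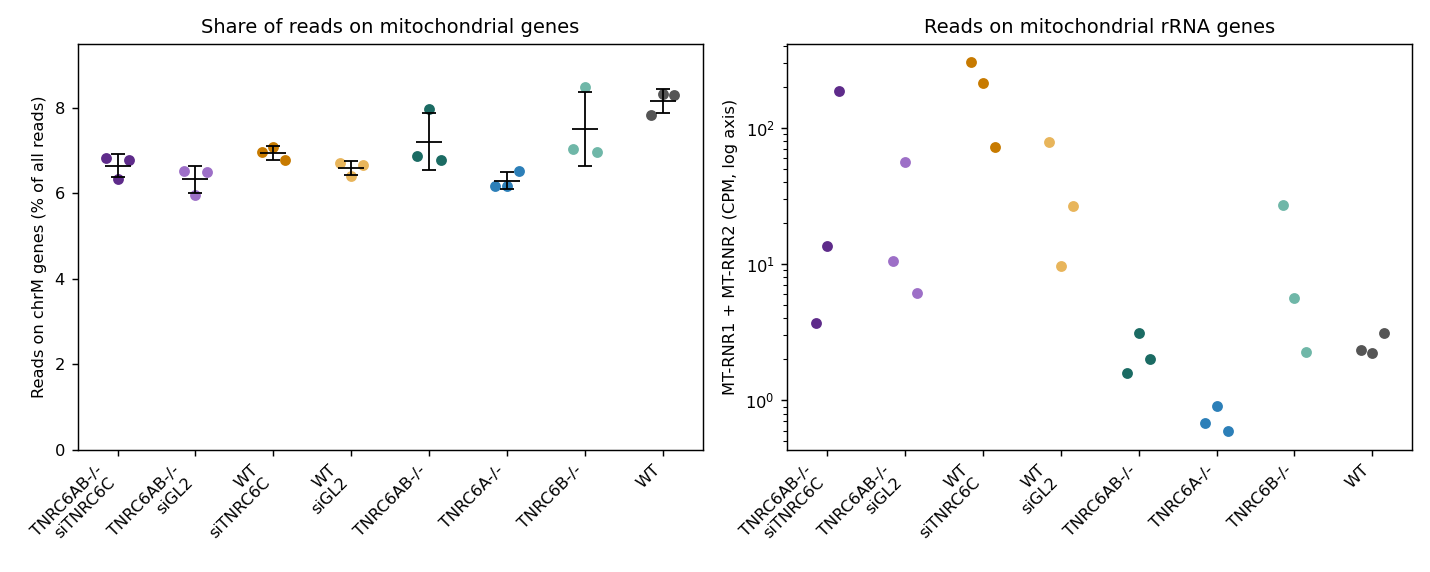
Left, the percentage of all reads on the 37 chrM genes in each library (points) with group mean and SD (bars); right, summed CPM of MT-RNR1 and MT-RNR2 per library on a log axis. TNRC6A-/- libraries lie between 6.17 and 6.53% and WT libraries between 7.83 and 8.34%; the rRNA sums run between 0.595 CPM in a TNRC6A-/- library and 303 CPM in a WT siTNRC6C library.

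The 3 classes of gene took very unequal parts of these reads. The 13 protein-coding genes held 99.54 to 99.93% of the chrM reads of a library. The tRNA genes held 0.0633 to 0.144% and the rRNA genes 0.000911 to 0.382%. Mitochondrial rRNA is normally far more abundant in cells than any mitochondrial mRNA. How rRNA was removed from these libraries is not given in the sources used here, so the rRNA counts are not levels in the cells.

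MT-RNR1 (12S rRNA, the RNA of the small mitochondrial ribosomal subunit) and MT-RNR2 (16S rRNA, of the large subunit) were the most variable members. MT-RNR1 had 3 to 4068 reads and MT-RNR2 13 to 6223 reads in a library. The 2 genes summed to 0.595, 0.678 and 0.903 CPM in TNRC6A-/- cells, against 2.22, 2.36 and 3.11 CPM in WT. TNRC6B-/- libraries held 2.27, 5.66 and 27.3 CPM, and TNRC6AB-/- libraries 1.58, 2.02 and 3.11 CPM. Every WT library thus exceeded every TNRC6A-/- library, and replicate 1 of TNRC6B-/- stood far above its group.

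In transfected groups the rRNA counts were spread more widely. TNRC6AB-/- siTNRC6C libraries held 3.68, 13.5 and 187 CPM of the 2 genes, TNRC6AB-/- siGL2 libraries 6.13, 10.5 and 55.7 CPM, WT siTNRC6C libraries 72.9, 214 and 303 CPM and WT siGL2 libraries 9.65, 26.6 and 78.5 CPM. In each of these groups the highest library lay several-fold above the lowest. MT-RNR1 rose by 3.79 log2 units in WT siGL2 cells against WT (SE 1.24, adjusted p = 0.0287 in edgeR's quasi-likelihood test, as for all adjusted p of single genes below) and by 3.78 in TNRC6AB-/- siGL2 cells against TNRC6AB-/- (SE 1.28, adjusted p = 0.0402). MT-RNR2 rose by 3.95 in the first pair (SE 1.18, adjusted p = 0.0185) and differed by 3.22 in the second (SE 1.17, adjusted p = 0.0548).

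These rRNA calls were lost without single libraries. For MT-RNR1 in WT siGL2 against WT, the adjusted p ran between 1.27e-05 and 0.523 over 14 alternatives, and the call was lost when any 1 of the 3 WT libraries or WT siGL2 replicate 1 was left out. In TNRC6AB-/- siGL2 against TNRC6AB-/- it was lost without any 1 of the TNRC6AB-/- libraries or without TNRC6AB-/- siGL2 replicate 2. For MT-RNR2 in WT siGL2 against WT it was lost without WT replicate 1, WT replicate 2 or WT siGL2 replicate 1. All 3 calls were lost in limma voom, and those in WT siGL2 cells also with the compared libraries alone. In the other 7 comparisons neither rRNA passed the test, including TNRC6A-/- against WT (log2 difference -2.65, SE 2.17, for MT-RNR1). Over the 8 groups, the log2 ratio of rRNA to mRNA differed by more than its replicates (permutation p = 0.0006, adjusted 0.0024), as did the ratio of MT-RNR1 to MT-RNR2 (p = 0.00823, adjusted 0.00823). The latter was lowest on average in TNRC6A-/- libraries, at -1.68, -1.38 and -0.295 on the log2 scale. These rest on 3 to 6 reads of MT-RNR1 and 13 to 23 reads of MT-RNR2, too few for a firm ratio.

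Per length, the mRNAs of WT cells spanned about an order of magnitude. MT-ATP8, which encodes a small subunit of the ATP synthase, was highest at 20101 ± 983 TPM, and MT-CO3, a core subunit of cytochrome c oxidase (complex IV), followed at 14456 ± 921 TPM. Then came MT-ND4L, a small membrane subunit of complex I, at 12300 ± 327 TPM and MT-CO2, which accepts electrons from cytochrome c, at 11283 ± 173 TPM. MT-CO1, the catalytic subunit of complex IV, at 9947 ± 656 TPM, and MT-ATP6, the proton channel subunit of the ATP synthase, at 9830 ± 510 TPM overlapped in their WT ranges. These 6 genes filled the upper part of the order, in which complex IV and ATP synthase genes outnumbered those of complex I.

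MT-ND4 stood at 8305 ± 509 TPM and MT-ND3 at 6970 ± 279 TPM, both subunits of the membrane arm of complex I. MT-ND1 (4382 ± 366 TPM), MT-CYB (4329 ± 589 TPM, the cytochrome b of complex III) and MT-ND2 (3999 ± 147 TPM) overlapped along the order, MT-ND1 with MT-CYB and MT-CYB with MT-ND2. MT-ND5 at 2845 ± 170 TPM and MT-ND6 at 1849 ± 632 TPM were the lowest. The level of MT-ATP8 exceeded that of MT-CO3 in 24 of 24 libraries, whereas MT-ND4L exceeded MT-CO2 in 14 and MT-CO1 exceeded MT-ATP6 in 9. TPM of a gene as short as MT-ATP8 or MT-ND4L depends strongly on the effective length that Salmon gave it and on how reads of the overlaps were shared out.

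**Figure D2:**
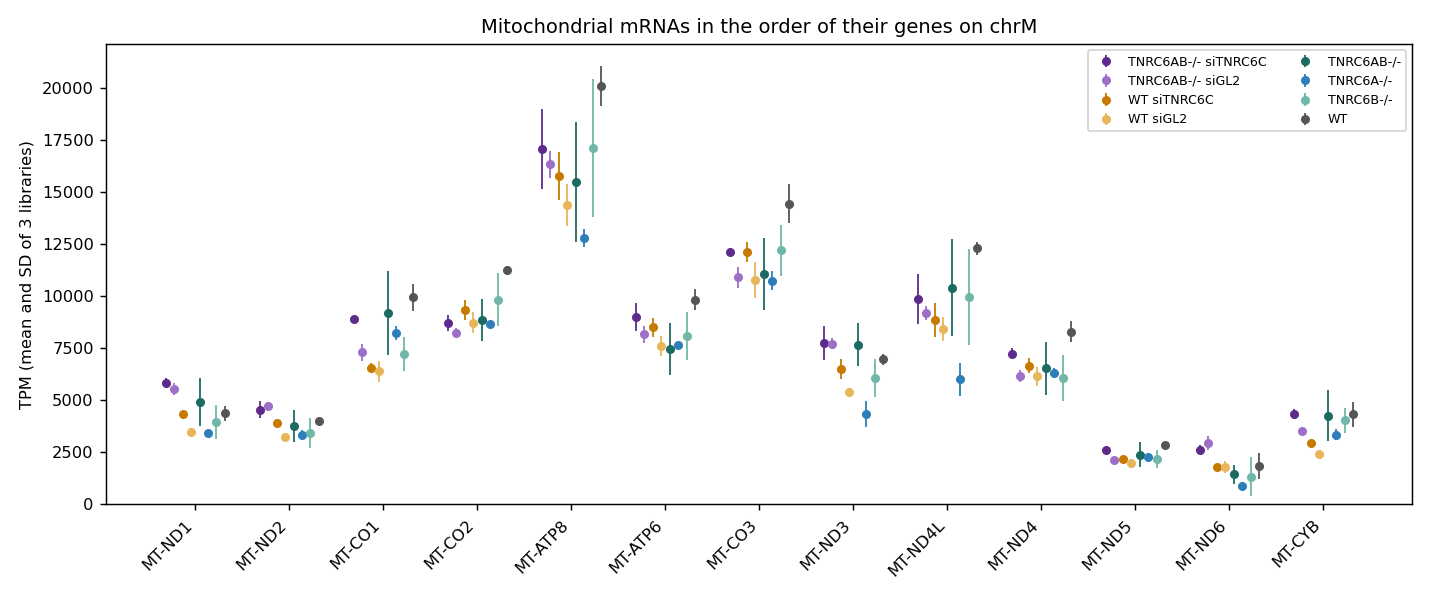
TPM of the 13 mitochondrial mRNAs in the order of their genes on chrM; points are group means and bars SD of 3 libraries, with the 8 groups in colours. MT-ATP8 has the highest mean in every group, and the mean of MT-ND4L lies below those of MT-CO2 and MT-CO1 in TNRC6A-/- cells and above both in WT.

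In TNRC6A-/- cells, 4 of the 13 mRNAs fell and none rose (6 and 0 in DESeq2), beside 5.47% of all tested genes that fell and 8.52% that rose. The 4 were MT-ND6, MT-ND4L, MT-ND3 and MT-ATP8. The fitted difference was below 0 for all 13, with a median of -0.35 on the log2 scale beside 0.02 over all genes tested. For 12 of the 13 the TNRC6A-/- libraries lay wholly below the WT libraries, as did those of 13.7% of all tested genes.

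MT-ND4L had 917, 1134 and 1164 CPM in TNRC6A-/- cells, against 1832, 1954 and 2230 CPM in WT, so that the highest TNRC6A-/- library was well below the lowest WT library. It fell by 0.90 on the log2 scale (SE 0.15, adjusted p = 0.00018). MT-ND4, encoded on the same transcript directly downstream, had 8979, 9190 and 9792 CPM in TNRC6A-/- cells, against 11254, 11414 and 13794 CPM in WT, and did not pass the test. In TPM the ratio of MT-ND4L to MT-ND4 was 0.847 to 1.03 in TNRC6A-/- cells, against 1.43 to 1.55 in WT, and no other group had a library below 1.22. The ratio of MT-ATP8 to MT-ATP6, another pair on a shared transcript, was 1.62 to 1.71 in TNRC6A-/- cells, against 2.01 to 2.09 in WT.

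MT-ATP8 had 1133, 1151 and 1339 CPM in TNRC6A-/- cells, against 1588, 1709 and 1713 CPM in WT, and it fell by 0.47 (SE 0.14, adjusted p = 0.0323). MT-ND3 had 854, 1066 and 1076 CPM in TNRC6A-/- cells, against 1382, 1529 and 1540 CPM in WT, and it fell by 0.57 (SE 0.15, adjusted p = 0.0108). Neither gene overlapped between the groups. MT-ATP8, MT-ND4L and MT-ND3 are the 3 shortest mRNAs (207, 297 and 346 bases), and library fragments averaged 165 to 172 bases in TNRC6A-/- cells, against 182 to 190 bases in WT; the part of fragment length in their difference was not tested. With counts rebuilt from TPM and transcript length, MT-ND4L fell by 1.0, MT-ND3 by 0.65 and MT-ATP8 by 0.61. That unit rests on the effective lengths that Salmon gave, which were only 62.0 to 79.8 bases for MT-ATP8, and it does not test the part of fragment length.

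MT-ND6, the complex I subunit encoded on the opposite strand, had 449, 383 and 325 CPM in TNRC6A-/- cells, against 970, 504 and 831 CPM in WT. The lowest WT library, replicate 2, lay just above the highest TNRC6A-/- library. MT-ND6 fell by 0.99 (SE 0.23, adjusted p = 0.00486), and its call and that on MT-ND4L held in all 14 alternatives. The call on MT-ND3 was lost without TNRC6A-/- replicate 1 (adjusted p up to 0.0734), and that on MT-ATP8 without any 1 of 5 libraries (all but TNRC6A-/- replicate 3) and in limma voom (adjusted p between 0.00461 and 0.121 over the alternatives).

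In TNRC6B-/- and TNRC6AB-/- cells no mRNA passed the test against WT. DESeq2 called 0 of the 13 in either. In simulated data for TNRC6A-/- against WT, edgeR called 2.99% of genes changed by 0.3 log2 units and 22.4% at 0.5. Missing calls therefore do not show equal levels. In TNRC6B-/- cells 0 of the 13 had an unadjusted p below 0.05 in edgeR, and the differences ran between -0.32 and 0.22 with a median of 0.05, while 2.20% of all tested genes rose and 0.940% fell. In TNRC6AB-/- cells 3 of the 13 had an unadjusted p below 0.05, with differences between -0.31 and 0.24 and a median of -0.19, while 17.2% of all tested genes rose and 12.3% fell. Whether the effect of TNRC6A loss differed with TNRC6B present or absent was tested as an interaction, which is positive where the loss of TNRC6A lowered a gene less, or raised it more, in cells without TNRC6B. It passed for MT-ND4L (0.75, SE 0.21, adjusted p = 0.024) and MT-ND3 (0.71, SE 0.21, adjusted p = 0.034), while 3.47% of all tested genes passed in that direction and 4.28% in the other. With a single cell line per genotype, this interaction cannot tell dependence on TNRC6B from differences between lines.

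MT-ND4L had 1635, 1952 and 1697 CPM in TNRC6AB-/- cells and 1741, 2360 and 1760 CPM in TNRC6B-/- cells, which overlapped each other and, in each case, the WT values. MT-ND3 had 1435, 1870 and 1898 CPM in TNRC6AB-/- cells and 1338, 1781 and 1597 CPM in TNRC6B-/- cells. The low level in TNRC6A-/- cells was thus not seen in double knockout cells, although both lack TNRC6A. The 2 interactions held in 14 and 12 of 20 alternatives. They were lost when the compared libraries were fitted alone, in limma voom and without any 1 of WT replicate 3, TNRC6A-/- replicate 1, TNRC6B-/- replicate 3 or TNRC6AB-/- replicate 2; that on MT-ND3 was also lost without TNRC6AB-/- replicate 3 and without WT replicate 2 and TNRC6B-/- replicate 1 together.

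**Figure D3:**
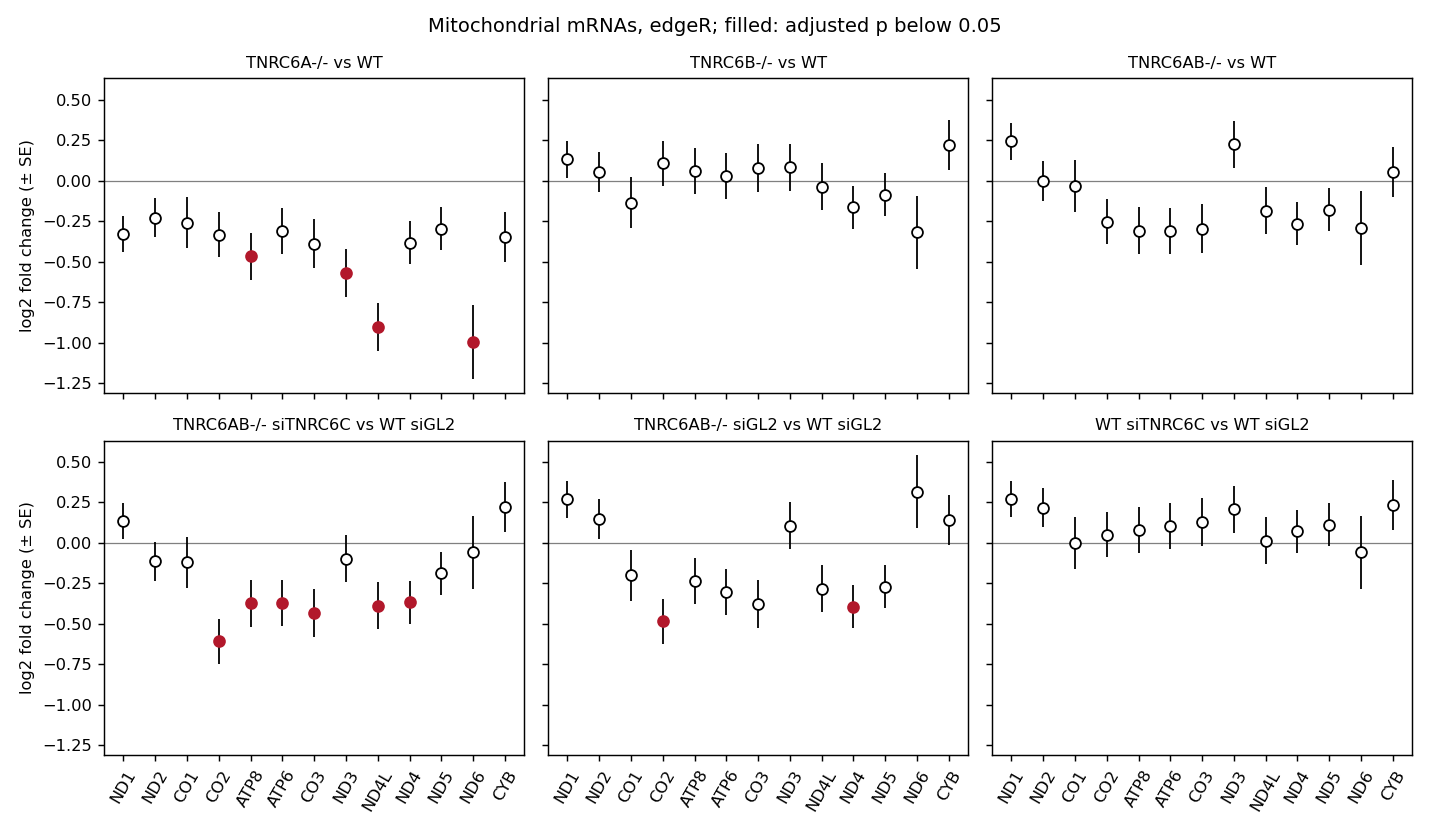
Fitted log2 fold change (points) and SE (bars) of the 13 mitochondrial mRNAs in 6 comparisons, with filled points at an adjusted p below 0.05 in edgeR. All 13 points lie below 0 in TNRC6A-/- against WT; 6 are filled below 0 in TNRC6AB-/- siTNRC6C against WT siGL2, and none in WT siTNRC6C against WT siGL2.

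Among transfected cells, up to 6 of the mRNAs were lower in TMM-scaled counts in the double knockout than in WT, but the direction depended on the unit. In TNRC6AB-/- siTNRC6C cells against WT siGL2, 6 of 13 mRNAs fell and 0 rose, while 25.2% of all tested genes fell and 17.0% rose. In TNRC6AB-/- siGL2 cells against WT siGL2, 2 fell and 0 rose, a share close to the 12.5% of all tested genes that fell (9.17% rose). In the fit of all libraries no mRNA was called for siTNRC6C in either genotype. The 6 mRNAs that fell in TNRC6AB-/- siTNRC6C cells were not clearly lower in TPM. MT-ND4 averaged 7241 TPM there, against 6157 TPM in WT siGL2, and MT-CO3 12137.5 against 10774.8 TPM, both without overlap. MT-ATP6, MT-ATP8 and MT-ND4L also averaged higher in TPM, and MT-CO2 was level at 8729 against 8730 TPM. The share of reads on chrM genes averaged 6.65 against 6.60%.

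MT-CO2 had 4638, 4208 and 4665 CPM in TNRC6AB-/- siTNRC6C cells and 5351, 4753 and 4633 CPM in TNRC6AB-/- siGL2 cells, against 7497, 7036 and 6076 CPM in WT siGL2. All 6 knockout libraries lay below the 3 WT siGL2 libraries. MT-CO2 fell by 0.61 in TNRC6AB-/- siTNRC6C cells (SE 0.14, adjusted p = 0.00122) and by 0.48 in TNRC6AB-/- siGL2 cells (SE 0.14, adjusted p = 0.0141). The first call held in all 14 alternatives, and the second was lost without TNRC6AB-/- siGL2 replicate 2 or 3 or WT siGL2 replicate 1.

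MT-ND4 had 9360, 8715 and 9472 CPM in TNRC6AB-/- siTNRC6C cells and 9828, 8497 and 8714 CPM in TNRC6AB-/- siGL2 cells, against 12796, 12027 and 10722 CPM in WT siGL2. It fell by 0.37 (SE 0.13, adjusted p = 0.0292) and by 0.39 (SE 0.13, adjusted p = 0.0352), and neither group overlapped WT siGL2. In TNRC6AB-/- siTNRC6C cells MT-CO3 (-0.43), MT-ND4L (-0.39), MT-ATP8 (-0.37) and MT-ATP6 (-0.37) also fell, at adjusted p between 0.0228 and 0.0411, and of these MT-ATP8 overlapped WT siGL2. In the same cells MT-ND1 and MT-CYB, with differences of 0.13 and 0.22 from WT siGL2, were the 2 of 13 mRNAs above 0, and neither passed. Leaving out WT siGL2 replicate 1, WT siGL2 replicate 2 or TNRC6AB-/- siTNRC6C replicate 2 ended each of the 5 calls other than MT-CO2, as leaving out TNRC6AB-/- siTNRC6C replicate 1 did for all of them but MT-ND4L. The number of chrM genes of any class called was then 3 to 5 of 35, and 10 with all libraries, beside 42.2% of all tested genes. The call on MT-ND4 in TNRC6AB-/- siGL2 cells was lost without TNRC6AB-/- siGL2 replicate 2 or 3 or WT siGL2 replicate 1 or 2, and with the compared libraries alone, as were those on MT-ND4L and MT-ATP8 in TNRC6AB-/- siTNRC6C cells.

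For siTNRC6C against siGL2 within a genotype, edgeR called no mitochondrial gene in the fit of all libraries. In WT siTNRC6C cells against WT siGL2, 0 of 35 chrM genes passed in edgeR and 0 in DESeq2, and 6 had an unadjusted p below 0.05 (MT-RNR1 and MT-RNR2 among them), while 0.932% of all tested genes passed (0.397% rose and 0.534% fell). In TNRC6AB-/- siTNRC6C cells against TNRC6AB-/- siGL2, 0 passed in either tool and 1 had an unadjusted p below 0.05, while 6.56% of all tested genes passed (2.19% rose and 4.37% fell). Other fits called a few: 2 with the compared libraries alone, 1 in limma voom and 2 without the filter in WT cells, and 4 with the compared libraries alone and 2 in limma voom in TNRC6AB-/- cells. The mRNA differences ran between -0.06 and 0.27 in WT cells and between -0.38 and 0.09 in TNRC6AB-/- cells. Differences of this size were seldom called in data simulated for TNRC6A-/- against WT and for TNRC6AB-/- siTNRC6C against WT siGL2. The siTNRC6C against siGL2 pairs were not simulated themselves, and missing calls in them do not show equal levels. As an interaction, the effect of siTNRC6C in TNRC6AB-/- cells minus that in WT cells passed for 0 of 35 chrM genes in edgeR, where 4 had an unadjusted p below 0.05, and for 1 in DESeq2, while 0.903% of all tested genes passed above 0 and 2.13% below.

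MT-ND6 differed between groups in another way as well. It had 1280, 1042 and 1217 CPM in TNRC6AB-/- siGL2 cells, against 715, 548 and 619 CPM in untransfected TNRC6AB-/- cells. It rose by 0.91 (SE 0.23, adjusted p = 0.00656), a call that held in all 14 alternatives. No other mRNA was called in that pair by edgeR, where 4 of 13 had an unadjusted p below 0.05 and 9.74% of all tested genes rose and 10.4% fell. In WT siGL2 cells it had 1003, 899 and 940 CPM, against 970, 504 and 831 CPM in WT, and did not pass.

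The share of mitochondrial mRNA reads on MT-ND6 averaged 1.48% in TNRC6AB-/- siTNRC6C, 1.88% in TNRC6AB-/- siGL2, 1.17% in WT siTNRC6C and 1.32% in WT siGL2 cells. Without transfection it averaged 0.911% in TNRC6AB-/-, 0.641% in TNRC6A-/- and 0.872% in TNRC6B-/- cells, against 1.0% in WT. Over the 8 groups the log2 ratio of MT-ND6 to the summed 12 other mRNAs differed by more than its replicates (permutation p = 0.00428, adjusted 0.00571). Library fragments were also longer after transfection, at 197 to 214 bases, against 165 to 192 bases without; their part in the ratio was not tested. Between WT siGL2 and WT only MT-CYB of the 13 mRNAs was called, at 4142, 3837 and 3309 CPM in WT siGL2 cells, against 4996, 5560 and 4574 CPM in WT (log2 fold change -0.42, SE 0.15, adjusted p = 0.049), and that call held in only 4 of 14 alternatives, being lost without WT replicate 1 or 2 or any 1 of the WT siGL2 libraries.

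**Figure D4:**
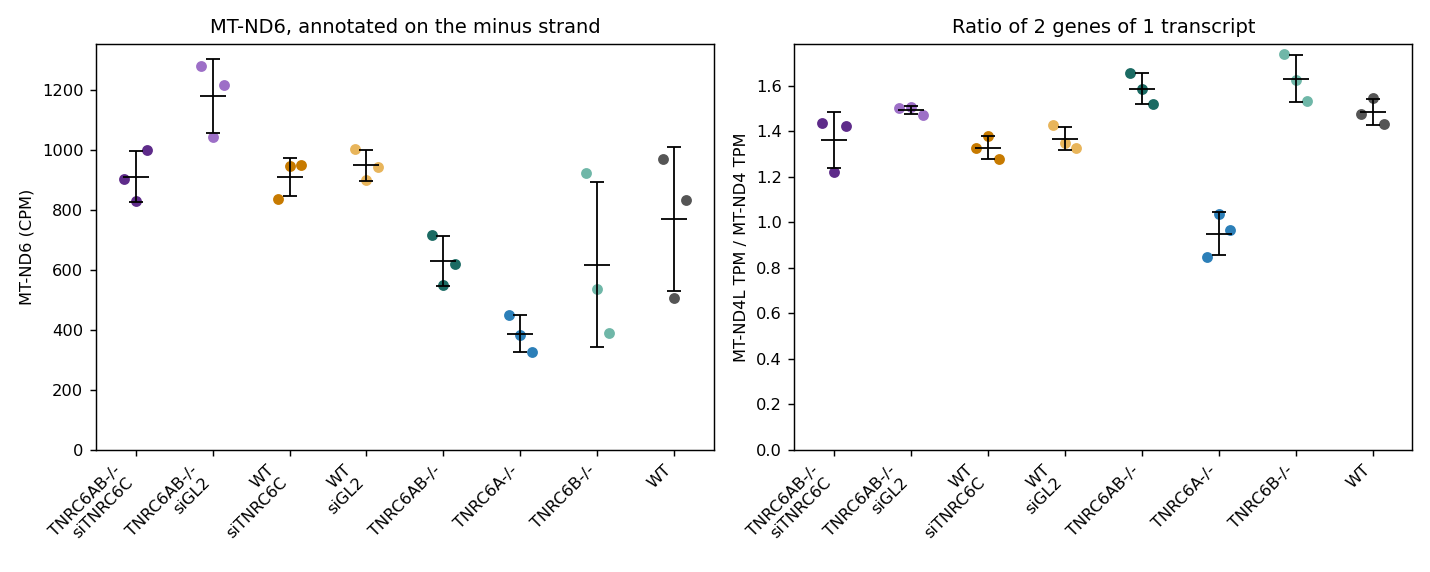
Left, CPM of MT-ND6 per library; right, the ratio of MT-ND4L to MT-ND4 in TPM, with group mean and SD as bars. TNRC6AB-/- siGL2 libraries have the highest MT-ND6 values (1042 to 1280 CPM) and the TNRC6A-/- libraries (325 to 449 CPM) have the lowest mean, with TNRC6B-/- replicate 3 (389 CPM) among them; the TNRC6A-/- ratios (0.847 to 1.03) lie below those of every other library.

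Reads on tRNA genes were few. All 22 tRNA genes had reads in at least 1 library, 20 had reads in all 24, and 16 had 10 or more reads in all 24. MT-TG (glycine) had no reads in 11 libraries and at most 7 in any, and MT-TR (arginine) had at most 13, so both were left out of the test. A count of 0 allows up to 3 counts, or 0.0703 to 0.107 CPM by library before TMM scaling; this covers counting error only. Mature tRNAs are short, structured and modified, and such libraries capture them poorly. Reads on these genes can come from mature tRNA, from precursors or from fragments that run into the neighbouring genes, and these were not separated. Levels are given in CPM, because the effective lengths of 9.4 to 14.4 bases that Salmon gave these genes inflate their TPM.

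In WT cells MT-TF (phenylalanine) was highest at 19.1 ± 6.26 CPM and MT-TL1 (leucine) next at 16.1 ± 0.453 CPM, with overlapping ranges. MT-TS1 had 9.93 ± 1.76 CPM and MT-TQ 8.14 ± 0.513 CPM. The other 18 lay at or below 5.08 ± 0.841 CPM, the level of MT-TE (glutamate). The order bears on reads and not on amounts of tRNA.

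Of 20 tRNA genes tested, 4 fell and 1 rose in TNRC6A-/- cells, 4 fell in TNRC6B-/- cells and 6 fell in TNRC6AB-/- cells, each against WT and beside the background shares given for the mRNAs. MT-TD and MT-TI fell in all 3 knockouts. MT-TD had 0.780, 0.355 and 0.689 CPM in TNRC6A-/-, 0.651, 0.552 and 0.170 CPM in TNRC6B-/- and 0.410, 0.617 and 0.664 CPM in TNRC6AB-/- cells, against 1.48, 1.64 and 1.69 CPM in WT. All 9 knockout libraries lay below all 3 WT libraries. It fell by 1.40 (SE 0.32, adjusted p = 0.00446), by 1.75 (SE 0.32, adjusted p = 0.00233) and by 1.5 (SE 0.32, adjusted p = 0.000826) in that order of genotypes, and the 3 comparisons share their WT libraries. WT libraries held 47 to 56 reads of MT-TD. The TNRC6B-/- comparison was the least firm: when its 6 libraries were fitted alone, or in limma voom, 0 of 35 chrM genes passed (4 in the fit of all libraries, beside 3.14% of all tested genes), without WT replicate 1 or without TNRC6B-/- replicate 3 only 2 did, and without WT replicate 2 and TNRC6B-/- replicate 1 together 8 did.

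MT-TI had 1.90, 2.35 and 2.29 CPM in TNRC6A-/-, 2.41, 2.07 and 1.36 CPM in TNRC6B-/- and 1.83, 2.55 and 1.51 CPM in TNRC6AB-/- cells, against 4.46, 3.5 and 3.47 CPM in WT. It fell by 0.80 (SE 0.23, adjusted p = 0.0209), 0.95 (SE 0.23, adjusted p = 0.0198) and 0.95 (SE 0.23, adjusted p = 0.00264). The call in TNRC6AB-/- cells held in all 14 alternatives. Those in TNRC6A-/- and TNRC6B-/- cells were lost without WT replicate 1, the first also without TNRC6A-/- replicate 1 or 3 and the second also without TNRC6B-/- replicate 2 or 3. Both were lost in limma voom, and the second also with the compared libraries alone.

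MT-TS1 had 4.13, 5.28 and 3.49 CPM in TNRC6B-/- and 4.57, 6.33 and 4.55 CPM in TNRC6AB-/- cells, against 8.10, 11.6 and 10.1 CPM in WT. It fell by 1.21 (SE 0.20, adjusted p = 0.000845) and by 0.94 (SE 0.20, adjusted p = 0.000692). In TNRC6A-/- cells it had 14.2, 7.32 and 10.4 CPM, which overlapped WT. MT-TW (tryptophan) also fell in TNRC6B-/- and TNRC6AB-/- cells, by 1.13 and 0.89 (adjusted p = 0.0408 and 0.0266), calls that held in 7 and 8 of 14 alternatives and were lost without WT replicate 1 or 3, TNRC6B-/- replicate 3 (in TNRC6B-/-) or TNRC6AB-/- replicate 1 or 3 (in TNRC6AB-/-). In TNRC6AB-/- cells MT-TE fell by 0.82 (adjusted p = 0.00578, lost in limma voom) and MT-TH (histidine) by 1.12 (adjusted p = 0.0332, lost without replicate 2 or 3 of either group). The calls on MT-TW and MT-TH were also lost with the compared libraries alone and in limma voom, those on MT-TH and on MT-TW in TNRC6B-/- cells also with counts rebuilt from TPM and length.

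MT-TQ was called in TNRC6A-/- cells but in neither of the other knockouts. It had 2.24, 2.48 and 4.01 CPM in TNRC6A-/- cells, against 8.48, 7.55 and 8.40 CPM in WT, with no overlap. It fell by 1.48 (SE 0.17, adjusted p = 2.3e-06), a call that held in all 14 alternatives. MT-TQ had 5.64, 7.04 and 5.56 CPM in TNRC6B-/- and 6.4, 7.08 and 6.76 CPM in TNRC6AB-/- cells. The interaction of the 2 losses passed for MT-TQ (1.63, SE 0.23, adjusted p = 6.08e-05) in all 20 alternatives. Each genotype is a single cell line, so dependence on TNRC6B and differences between lines cannot be told apart.

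MT-TP and MT-TT, neighbours on opposite strands, moved in opposite directions in TNRC6A-/- cells. MT-TP had 1.87, 1.26 and 1.5 CPM in TNRC6A-/- cells, against 4.68, 1.93 and 5.29 CPM in WT, and it fell by 1.37 (SE 0.31, adjusted p = 0.00417). WT replicate 2 lay close to the TNRC6A-/- libraries, and without it MT-TP still passed; the call was lost in 1 of 14 alternatives, the fit of the compared libraries alone. MT-TT had 3.05, 5.48 and 5.07 CPM in TNRC6A-/- cells, against 1.85, 2.15 and 1.87 CPM in WT. It rose by 1.21 (SE 0.30, adjusted p = 0.00806), in all 14 alternatives, and no other comparison called it. Interactions of the 2 losses passed also for MT-TD (1.65, SE 0.48, adjusted p = 0.0331) and MT-TP (1.56, SE 0.42, adjusted p = 0.022), in 13 and 11 of 20 alternatives. The first was lost without any 1 of WT replicate 3, TNRC6A-/- replicate 2, TNRC6B-/- replicate 3 or TNRC6AB-/- replicate 2 or 3, and the second without any 1 of WT replicate 1 or 3, TNRC6A-/- replicate 2 or 3, TNRC6B-/- replicate 2 or 3 or TNRC6AB-/- replicate 3. Both were lost with the compared libraries alone and in limma voom.

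**Figure D5:**
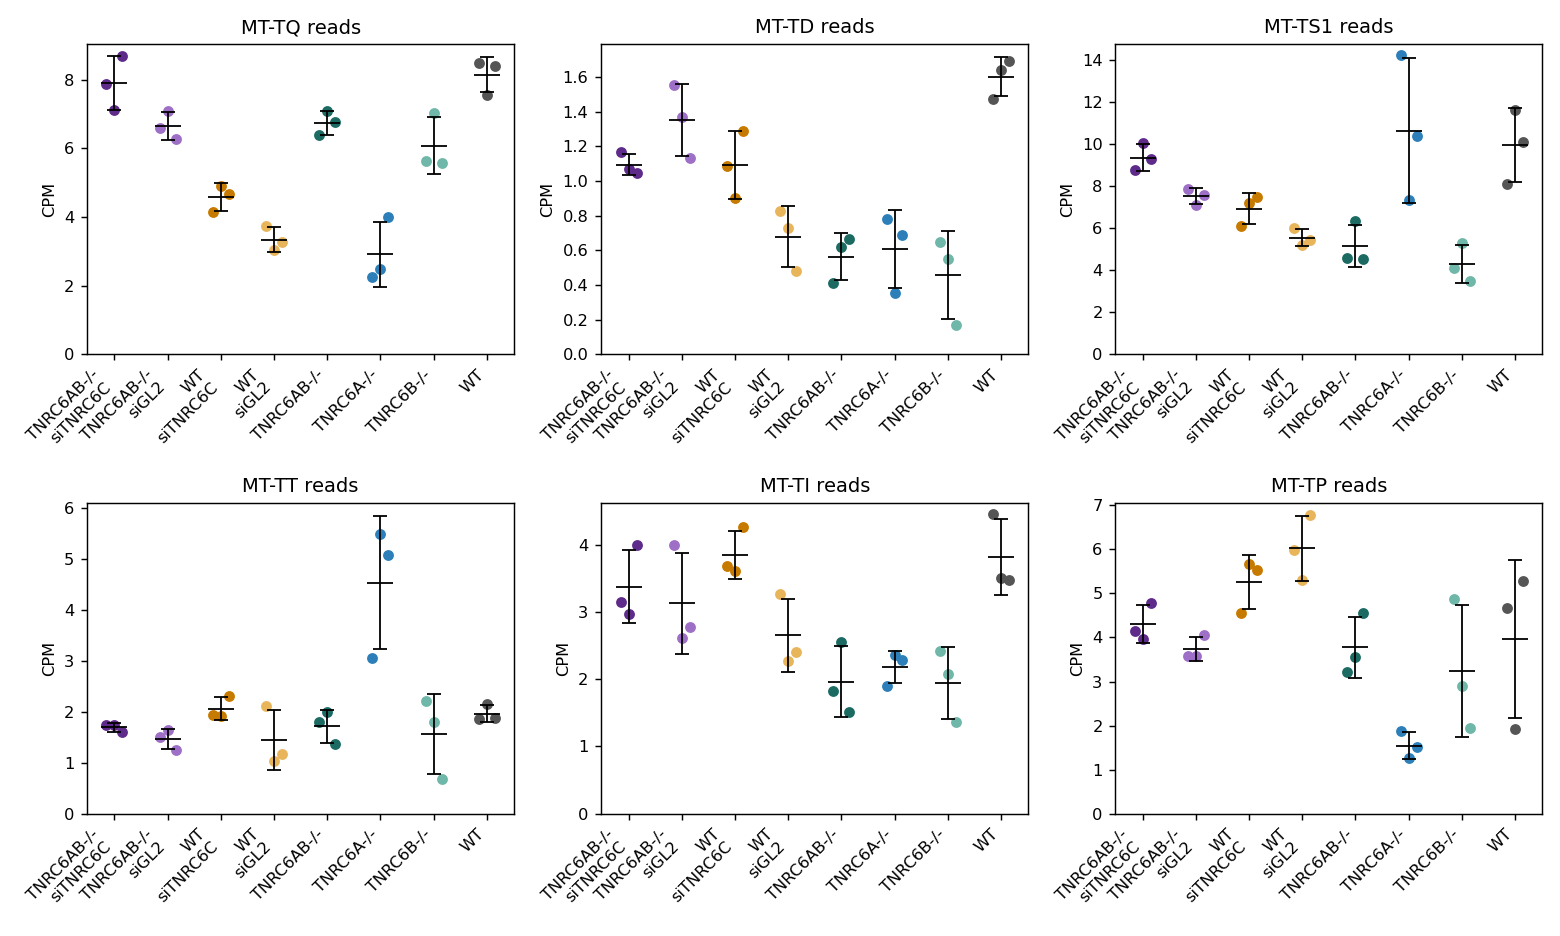
CPM per library of 6 mitochondrial tRNA genes in the 8 groups, with group mean and SD as bars. MT-TD lies below WT in all 9 libraries of untransfected knockouts, MT-TQ is lowest in TNRC6A-/- and WT siGL2 libraries, and MT-TT is highest in TNRC6A-/- libraries.

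The effect of siGL2 transfection differed between WT and TNRC6AB-/- cells for 4 tRNA genes, MT-TD, MT-TS1, MT-TQ and MT-TI. In WT siGL2 cells against WT, 5 of 20 tRNA genes fell and 0 rose (all tested genes, 8.41% fell and 16.4% rose). In TNRC6AB-/- siGL2 cells against TNRC6AB-/-, 3 of 20 rose and 0 fell (4 and 0 in DESeq2), while 9.74% of all tested genes rose and 10.4% fell. When the 6 libraries of the WT pair were fitted alone, only 1 chrM gene of any class, MT-TQ, passed, against 8 of 35 in the fit of all libraries, beside 24.8% of all tested genes. MT-TQ had 3.74, 3.03 and 3.26 CPM in WT siGL2 cells, against 8.48, 7.55 and 8.40 CPM in WT, and it fell by 1.28 (SE 0.17, adjusted p = 8.78e-05). MT-TQ had 6.61, 7.09 and 6.27 CPM in TNRC6AB-/- siGL2 cells, which overlapped the untransfected TNRC6AB-/- values.

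MT-TD had 0.825, 0.730 and 0.482 CPM in WT siGL2 cells, and it fell by 1.23 against WT (SE 0.31, adjusted p = 0.00664). It had 1.55, 1.37 and 1.14 CPM in TNRC6AB-/- siGL2 cells, and it rose by 1.26 against TNRC6AB-/- (SE 0.32, adjusted p = 0.0068). The effect of transfection thus had opposite signs in the 2 genotypes for MT-TD, and the difference of the effects was 2.49 (SE 0.44, adjusted p = 0.00109).

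The same interaction passed for MT-TS1 (1.38, SE 0.28, adjusted p = 0.00324), MT-TQ (1.26, SE 0.23, adjusted p = 0.00135) and MT-TI (1.19, SE 0.32, adjusted p = 0.0217), while 2.22% of all tested genes passed in that direction and 6.50% in the other. It held in all 20 alternatives for MT-TD, MT-TS1 and MT-TQ and in 14 for MT-TI, whose interaction was lost without WT replicate 1, TNRC6AB-/- replicate 3, TNRC6AB-/- siGL2 replicate 1 or WT siGL2 replicate 2, with the compared libraries alone and in limma voom. MT-TS1 had 6.02, 5.19 and 5.44 CPM in WT siGL2 cells and fell by 0.84 against WT (SE 0.19, adjusted p = 0.0043). MT-TI rose by 0.67 (adjusted p = 0.0422) and MT-TW by 0.98 (adjusted p = 0.0204) in TNRC6AB-/- siGL2 cells against TNRC6AB-/-, and both calls were lost without TNRC6AB-/- replicate 1 or 3 or TNRC6AB-/- siGL2 replicate 1, that on MT-TW also without TNRC6AB-/- siGL2 replicate 2 and that on MT-TI also with the compared libraries alone, in limma voom and with the replicate number as a block in the fit. MT-TK (lysine, by 0.93, adjusted p = 0.00989) and MT-TY (tyrosine, by 0.98, adjusted p = 0.0354) fell in WT siGL2 cells against WT. The first was lost without WT siGL2 replicate 2 and the second without WT replicate 3 or any 1 of the WT siGL2 libraries, in limma voom and with counts rebuilt from TPM and length.

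Compared within transfected cells, MT-TQ was higher in the double knockout. It had 7.87, 7.12 and 8.70 CPM in TNRC6AB-/- siTNRC6C cells and 6.61, 7.09 and 6.27 CPM in TNRC6AB-/- siGL2 cells, against 3.74, 3.03 and 3.26 CPM in WT siGL2. It rose by 1.24 (SE 0.16, adjusted p = 2.66e-06) and by 0.99 (SE 0.17, adjusted p = 0.00011), in all 14 alternatives each. MT-TS1 rose by 0.75 in TNRC6AB-/- siTNRC6C cells (SE 0.19, adjusted p = 0.00323), and MT-TD by 0.99 in TNRC6AB-/- siGL2 cells (SE 0.31, adjusted p = 0.0228, lost without replicate 1 or 2 of that group or WT siGL2 replicate 2 or 3). In TNRC6AB-/- siTNRC6C cells MT-TF fell by 0.99 (adjusted p = 0.0347) and MT-TS2 (serine) by 1.27 (adjusted p = 0.0291), with 0.153 to 0.318 CPM of MT-TS2 in these cells, against 0.393 to 0.687 CPM in WT siGL2. Both were lost without TNRC6AB-/- siTNRC6C replicate 2 or WT siGL2 replicate 1, MT-TF also without TNRC6AB-/- siTNRC6C replicate 1 or WT siGL2 replicate 2 and MT-TS2 also without TNRC6AB-/- siTNRC6C replicate 3.

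Copies of mitochondrial DNA inserted in nuclear chromosomes can take reads from chrM genes, or give reads to them, where their sequences are near-identical. Of 407 such annotated copies 39 were tested. All 407 held 0.503 to 1.08% of their own and the chrM reads together. Only 3 averaged 5 CPM or more, all within a short stretch of chromosome 1. MTATP6P1 (chr1:633696-634376) averaged 363 CPM over all libraries, MTND2P28 (chr1:629640-630683) 40.9 CPM and MTCO1P12 (chr1:631074-632616) 15.8 CPM.

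MTND2P28 rose to 105 ± 3.0 CPM in TNRC6A-/- cells, against 25.6 ± 3.97 CPM in WT (log2 fold change 2.04, SE 0.15, adjusted p = 2.52e-09). MTCO1P12 fell to 6.75 ± 1.57 CPM in TNRC6A-/- cells, against 26.1 ± 5.64 CPM in WT (-1.95, SE 0.22, adjusted p = 2.58e-06). The functional genes MT-ND2 and MT-CO1 were not called in that pair. MTCO1P12 fell also in siGL2-transfected cells, by 1.16 in WT siGL2 against WT and by 1.41 in TNRC6AB-/- siGL2 against TNRC6AB-/-. Estimated counts of such copies depend on single base differences between copy and chrM gene, and a base that differs between a line and the reference would move reads between them; this was not tested.

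The nuclear partners of the mitochondrial genes were counted in lists by complex and step. They hold 199 tested genes in 8 lists. In TNRC6A-/- cells against WT 10 of the 199 fell and 0 rose, while 5.47% of all tested genes fell and 8.52% rose, so the share that fell was near that of all genes. Of 37 nuclear complex I subunits 1 fell, of 9 complex III subunits 2, of 11 complex IV subunits 0, of 17 ATP synthase subunits 2, of 20 genes of mitochondrial DNA transcription and maintenance 3, of 23 genes of mitochondrial RNA processing and decay 1 and of 78 mitochondrial ribosomal protein genes 1, and of 4 complex II subunits 0. None rose in edgeR or in DESeq2, and 4 of the 199 were higher at an unadjusted p below 0.05. The list medians ran between -0.33 for complex IV and -0.05 for complex II and for RNA processing, beside 0.02 over all genes tested. Among those that fell were NDUFS6, an accessory subunit of complex I (-0.57, SE 0.14, adjusted p = 0.00603), ATP5ME, a membrane subunit of the ATP synthase (-0.64, SE 0.15, adjusted p = 0.00477), and POLG2, the accessory subunit of the mitochondrial DNA polymerase (-0.42, SE 0.09, adjusted p = 0.00247).

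In TNRC6AB-/- cells, of 20 transcription and maintenance genes 8 fell and 1 rose, of 23 RNA processing genes 10 fell and 2 rose, and of 78 ribosomal protein genes 15 fell and 3 rose, while 12.3% of all tested genes fell and 17.2% rose. Of the respiratory subunits, 3 of 37 fell and 4 rose in complex I, 3 of 4 fell and 1 rose in complex II, and 3 of 9, 1 of 11 and 3 of 17 fell and 0 rose in complex III, complex IV and the ATP synthase. PPARGC1B, a coactivator of mitochondrial biogenesis genes, averaged 11.3 ± 1.46 CPM in TNRC6AB-/- cells, against 29.7 ± 3.05 CPM in WT (-1.39, SE 0.14, adjusted p = 5.02e-08). TWNK, the mitochondrial DNA helicase, averaged 32.6 ± 3.16 CPM, against 61.5 ± 1.48 CPM in WT (-0.91, SE 0.16, adjusted p = 0.000117). FASTKD3, a mitochondrial RNA-binding protein, averaged 3.90 ± 0.323 CPM, against 10.1 ± 1.63 CPM in WT (-1.38, SE 0.18, adjusted p = 2.52e-06). MRPL41, of the large mitochondrial ribosomal subunit, was among the 3 that rose, to 43.2 ± 9.96 CPM in TNRC6AB-/- cells, against 18.4 ± 2.99 CPM in WT (1.24, SE 0.17, adjusted p = 6.55e-06).

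In TNRC6B-/- cells against WT 1 complex I gene (NDUFC2, -0.57, SE 0.14, adjusted p = 0.0285) and 1 maintenance gene (POLG2, -0.34, SE 0.09, adjusted p = 0.0316) fell, and 0 of the other genes were called, with 4 higher and 5 lower of 199 at an unadjusted p below 0.05 and the same counts of calls in DESeq2. Over all tested genes 0.940% fell and 2.20% rose, so the 2 that fell were at the share of all genes. In WT siTNRC6C cells against WT siGL2 0 of 199 were called, with 27 higher and 1 lower at an unadjusted p below 0.05 and 1 higher in DESeq2, while 0.397% of all tested genes rose and 0.534% fell.

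Against WT siGL2, most nuclear subunits fell in TNRC6AB-/- siTNRC6C cells. All 17 ATP synthase and all 11 complex IV subunits fell, with 28 of 37 in complex I, 3 of 4 in complex II, 8 of 9 in complex III, and 63 of 78 ribosomal protein genes, and 0 of these rose, while 25.2% of all tested genes fell. The medians of these lists ran between -1.05 for complex II and -0.54 for complex I, beside -0.19 for the 13 mitochondrial mRNAs. Of the transcription and maintenance genes 12 of 20 fell and 0 rose (median -0.43). Of the RNA processing genes 13 of 23 fell and 2 rose (median -0.46), while 17.0% of all tested genes rose. ATP5F1D, in the rotor stalk of the ATP synthase, averaged 14.6 ± 0.785 CPM in TNRC6AB-/- siTNRC6C cells, against 39.6 ± 5.71 CPM in WT siGL2 (-1.44, SE 0.15, adjusted p = 9.33e-08), and SDHA, the flavoprotein of complex II, averaged 49.6 ± 1.27 CPM, against 129 ± 14.2 CPM (-1.38, SE 0.15, adjusted p = 1.96e-07).

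In TNRC6AB-/- siGL2 cells against WT siGL2 10 of 37 complex I, 3 of 4 complex II, 6 of 9 complex III, 6 of 11 complex IV and 10 of 17 ATP synthase subunits fell and 0 rose, while 12.5% of all tested genes fell. In TNRC6AB-/- siTNRC6C cells against TNRC6AB-/- siGL2, 5, 0, 3, 2 and 5 members of these lists, in the same order, fell and 0 rose, while 4.37% of all tested genes fell and 2.19% rose. In these pairs, in that order, 5 and 3 of 20 maintenance genes fell. Of 23 RNA processing genes 3 and 0 fell, and of 78 ribosomal protein genes 16 and 14 fell. In the first pair 1 RNA processing gene and 1 ribosomal protein gene rose. NDUFA4, a complex IV subunit, averaged 40.7 ± 3.26 CPM in TNRC6AB-/- siGL2 cells, against 98.1 ± 14 CPM in WT siGL2 (-1.27, SE 0.16, adjusted p = 4.12e-06).

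Most nuclear subunits rose in WT cells given siGL2, while 1 of the 13 mitochondrial mRNAs fell and 0 rose. In WT siGL2 cells against WT 23 of 37 complex I, 4 of 4 complex II, 7 of 9 complex III, 9 of 11 complex IV, 14 of 17 ATP synthase and 54 of 78 ribosomal protein genes rose and 0 fell, while 16.4% of all tested genes rose. Medians of these lists lay between 0.45 and 0.62, beside -0.04 for the 13 mitochondrial mRNAs, and no test compared the lists with the mRNAs. These medians are after TMM scaling, and other units put the mitochondrial mRNAs lower. The share of reads on chrM genes averaged 6.60% in WT siGL2 cells, against 8.16% in WT. MT-CO2 averaged 8730 TPM, against 11283 TPM in WT, and the other mitochondrial mRNAs also had lower mean TPM. The nuclear lists were not counted in those units. The other lists moved less. Of the transcription and maintenance genes 6 of 20 rose (median 0.21), and of the RNA processing genes 7 of 23 rose (median 0.23). In both, 0 fell. NDUFC2 averaged 87.6 ± 12.8 CPM in WT siGL2 cells, against 46.6 ± 10.4 CPM in WT (0.91, SE 0.14, adjusted p = 0.000404). In TNRC6AB-/- siGL2 cells against TNRC6AB-/- 11, 2, 3, 3, 5 and 40 members of the respiratory and ribosomal protein lists, in the order above, rose and 0 fell. Of the maintenance genes 9 of 20 rose, and of the RNA processing genes 13 of 23 rose, and 0 fell, while 9.74% of all tested genes rose. REXO2, a nuclease that degrades short mitochondrial RNAs, averaged 46.1 ± 4.98 CPM in TNRC6AB-/- siGL2 cells, against 25.8 ± 1.16 CPM in TNRC6AB-/- (0.84, SE 0.15, adjusted p = 0.000347).

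The log2 of the summed CPM of the 13 mRNAs was set against the log2 CPM of every tested gene outside chrM over the 24 libraries. The 5 closest patterns were AC108134.2 (Pearson r 0.898), SLC39A11 (0.890), HOOK1 (0.878), VTRNA1-3 (0.877) and B3GNT2 (0.868). These are descriptions over libraries that share groups and scaling.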

How the data were processed

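RNA of HCT116 cells was sequenced as 24 libraries in 8 groups of 3, taken from the sample labels. Extraction is given as Trizol in the labels and as RNeasy columns in the methods, and the library kit keeps the strand. The submitters' processing notes name Salmon 0.11.0, STAR 2.5.3a and DESeq2; how rRNA was removed and which strand setting was used are not given in the sources used here. The deposited tables hold, for 199612 transcripts, the authors' expected counts (estimated reads per transcript, not whole numbers) and TPM. By identifier 199368 transcripts matched GENCODE 29 (hg38), and the 244 unmatched held at most 0.0544% of a library's reads.

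Expected counts were summed to 57721 genes (44889 with reads) and rounded. Group means were fitted to the 24 libraries together by the quasi-likelihood method of edgeR 4.0.16 (R 4.3.3; TMM, filterByExpr, 24153 genes, Benjamini-Hochberg adjustment). A gene rose or fell at an adjusted p below 0.05. The fit used 1 estimate of spread per gene for all groups. Fitted by group, the common spread between replicates (edgeR's biological coefficient of variation) was 0.215 in WT and 0.258 in TNRC6B-/-. It was 0.057 in TNRC6AB-/- siGL2, 0.0336 in TNRC6AB-/- siTNRC6C, 0.032 in WT siTNRC6C and 0.1 in WT siGL2. Adjusted p may thus be too small for pairs of the wider groups and too large for pairs of the narrower ones. CPM are TMM-scaled. Shares, and ratios from TPM, were tested by exact permutation, or over 8 groups with 100000 resamples. Alternatives were DESeq2 1.42.0, limma voom 3.58.1, no filter, other scalings and units, a replicate block, the compared libraries alone, and leaving out libraries. Replicates differed by more than sampling noise (chi-square per gene 2.98 to 119), so none was treated as a duplicate. The fits were tested on simulated data, with changed genes drawn from those above the median level. For TNRC6A-/- against WT, log2 changes of 0.3, 0.5 and 1 were called in 2.99, 22.4 and 91% of changed genes. For TNRC6AB-/- siTNRC6C against WT siGL2 these values were 2.99, 25.4 and 85.1%.

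Members, gene lists and tests were chosen with earlier results of these data known. Named were all chrM rRNA and protein-coding genes and the tested tRNA genes, per nuclear list up to 3 genes with the smallest adjusted p at a mean of 5 CPM or more, nuclear copies at 5 CPM or more, and the 5 genes closest in pattern.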

Additional observations from a re-analysis of the deposited data

Results flagged for a closer look

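Effects of the same change differed between genotypes for 9 pairs of gene and contrast, by the interaction test in edgeR. Each genotype is a single cell line, so genotype and line cannot be told apart in these differences. For siGL2 transfection in TNRC6AB-/- cells minus that in WT cells, the differences on the log2 scale were 2.49 for MT-TD, 1.38 for MT-TS1, 1.26 for MT-TQ and 1.19 for MT-TI. For loss of TNRC6A in cells without TNRC6B minus that in cells with it, they were 1.65 for MT-TD, 1.63 for MT-TQ, 1.56 for MT-TP, 0.75 for MT-ND4L and 0.71 for MT-ND3. The MT-TD, MT-TS1 and MT-TQ differences of the transfection contrast and the MT-TQ difference of the knockout contrast held in all 20 alternatives, and the other 5 were lost in 6 to 9 of them.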

How the results depend on the processing

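Of 55 calls on chrM genes, 19 held in every alternative, 36 were lost in at least 1 and 0 changed sign. Depth limits the tRNA genes most: MT-TD had 5 to 60 reads a library. No scaling moved the median of all genes by more than 0.1. Each scaling tried sets most genes near 0 by design, so this does not test the direction of chrM genes.

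Shares of TPM instead of reads gave differences of -3.35 (TNRC6A-/-), -2.11 (TNRC6B-/-) and -1.88 points (TNRC6AB-/-) against WT, 0.926 (WT siTNRC6C), 1.36 (TNRC6AB-/- siGL2) and 2.18 points (TNRC6AB-/- siTNRC6C) against WT siGL2, 0.825 for TNRC6AB-/- siTNRC6C against TNRC6AB-/- siGL2, -3.26 for WT siGL2 against WT and -0.0171 for TNRC6AB-/- siGL2 against TNRC6AB-/-. Among protein-coding genes alone TNRC6A-/- differed from WT by -2.12 points.

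Counts of chrM genes called moved by over 1.5 times as follows. Throughout, shares of all tested genes are given for the edgeR fit of all libraries only. Whether calls over all genes moved alike in the other fits is therefore not shown. With the compared libraries alone they were 0 in TNRC6B-/- against WT, 2 in WT siTNRC6C against WT siGL2, 8 in TNRC6AB-/- siGL2 against WT siGL2, 4 in TNRC6AB-/- siTNRC6C against TNRC6AB-/- siGL2, 1 in WT siGL2 against WT, 5 in the interaction of siTNRC6C with genotype and 1 in that of TNRC6A with TNRC6B. With limma voom they were 0, 1, 9, 2, 4, 4 and 1 in that order, and 3 in TNRC6AB-/- against WT. Without a filter they were 2 in WT siTNRC6C against WT siGL2 and 9 in TNRC6AB-/- siGL2 against TNRC6AB-/-. DESeq2 gave 1 in the interaction of siTNRC6C with genotype (edgeR 0, with 4 at an unadjusted p below 0.05) and 7 in that of transfection with genotype. Without WT replicate 2 and TNRC6B-/- replicate 1 they were 8 in TNRC6B-/- against WT, 7 in TNRC6AB-/- siGL2 against WT siGL2, 1 in TNRC6AB-/- siTNRC6C against TNRC6AB-/- siGL2, 11 in TNRC6AB-/- siGL2 against TNRC6AB-/-, 1 in the interaction of siTNRC6C with genotype and 7 in that of transfection with genotype.

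Leaving out each library in turn, the counts ran between 2 and 6 in TNRC6B-/- against WT (4 with all libraries), 1 and 3 in TNRC6AB-/- siGL2 against WT siGL2 (4), 3 and 12 in TNRC6AB-/- siTNRC6C against WT siGL2 (10), 5 and 7 in WT siGL2 against WT (8), 2 and 6 in TNRC6AB-/- siGL2 against TNRC6AB-/- (5) and 2 and 8 in the interaction of TNRC6A with TNRC6B (5). The cause was not tested for any of these.

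Replicate numbers did not pair the samples: same-numbered deviations correlated between -0.322 and 0.354, and each library correlated best with its own number in 1 of 9 comparisons. With the number as a block, 3 chrM genes were called in TNRC6AB-/- siGL2 against TNRC6AB-/-, against 5 without it, and counts of the other comparisons stayed within 1.5 times.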
